A study of Homo sapiens with 4 samples.

Results

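The HOX genes of the 4 human clusters were followed in total RNA of 2 prostate cancer cell lines sequenced after removal of ribosomal RNA, with 2 libraries per line. A gene was a member if it is a protein-coding gene named HOXA, HOXB, HOXC or HOXD plus a number and had a deposited transcript. The transcript itself need not be coding. This gave 39 of 22981 named genes: 11 HOXA, 10 HOXB, 9 HOXC and 9 HOXD genes. C4-2 is a subline raised from LNCaP cells in castrated mice and is labelled CRPC, castration-resistant prostate cancer. LNCaP is an androgen-sensitive line from a lymph node metastasis, labelled Primary PC. Both lines were kept in RPMI with charcoal-stripped serum, which holds little steroid, so this was shared by the groups, and each line is a single cell line and not a set of tumours. Whether a line's libraries stem from different cultures is not stated, so the p-values measure only the spread between these libraries, which may be technical.

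Groups follow the sample titles and cell line labels. The deposited data of each sample are stored under the name of the other line, so that every direction given here would turn round if the stored names were right. C4-2 and LNCaP below stand for the libraries so labelled.

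HOX genes encode transcription factors that bind DNA through a homeodomain, and they pattern the body axis. In each cluster they lie in the order in which they act along the head-to-tail axis, with low-numbered genes at the head end and the highest-numbered genes at the tail and urogenital end, and genes of the same number in different clusters are paralogs. HOXB13 is known in the prostate as a factor of the luminal epithelium that works with the androgen receptor, while HOXA13 and HOXD13 are needed for growth of the prostate in mice. The levels of HOX genes in adult cells are kept by Polycomb repressors and Trithorax activators.

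The members share a related stretch in the part that binds DNA. The 4 genes of group 13 are shown first because they moved in opposite directions. Each line gives the homeobox, the 180 bases that encode the homeodomain, 5′ to 3′ on the coding strand (GENCODE transcripts on GRCh37), and capitals mark bases that differ from HOXB13.
HOXB13: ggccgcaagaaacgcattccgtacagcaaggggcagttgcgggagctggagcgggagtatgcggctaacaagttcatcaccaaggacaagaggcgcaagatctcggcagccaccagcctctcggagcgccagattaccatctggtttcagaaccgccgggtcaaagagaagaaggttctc
HOXA13: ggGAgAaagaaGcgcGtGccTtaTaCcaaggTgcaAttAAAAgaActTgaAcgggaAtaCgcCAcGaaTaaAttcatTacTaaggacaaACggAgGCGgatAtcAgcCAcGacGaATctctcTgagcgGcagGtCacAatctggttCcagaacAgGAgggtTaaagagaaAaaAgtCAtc
HOXC13: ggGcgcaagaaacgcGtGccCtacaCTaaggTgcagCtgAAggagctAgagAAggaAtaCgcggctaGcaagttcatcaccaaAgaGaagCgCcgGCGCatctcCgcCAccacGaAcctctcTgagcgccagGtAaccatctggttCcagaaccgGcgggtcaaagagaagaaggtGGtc
HOXD13: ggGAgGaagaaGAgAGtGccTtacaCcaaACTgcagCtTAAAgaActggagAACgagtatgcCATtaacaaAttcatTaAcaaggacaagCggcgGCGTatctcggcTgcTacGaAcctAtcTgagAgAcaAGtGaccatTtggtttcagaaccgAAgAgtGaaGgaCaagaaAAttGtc

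The homeobox of HOXB13 lies in exon 2 of 2 at chr17:46804182-46804361 (minus strand). HOXC13 is identical to it at 80.0% of bases and differs at 36, HOXD13 at 70.0% with 54 differences, and HOXA13 at 69.4% with 55. HOXB6 and HOXB7, neighbours on chromosome 17, are closer to each other at 88.9%, and they are shown because the tags of HOXB7 were absent from C4-2 while those of HOXB6 were not. Capitals mark the 20 bases at which these homeoboxes differ.
HOXB7: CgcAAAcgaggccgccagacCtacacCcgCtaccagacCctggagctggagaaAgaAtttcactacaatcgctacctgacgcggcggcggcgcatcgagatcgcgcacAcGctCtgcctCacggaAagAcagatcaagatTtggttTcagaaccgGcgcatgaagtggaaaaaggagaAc
HOXB6: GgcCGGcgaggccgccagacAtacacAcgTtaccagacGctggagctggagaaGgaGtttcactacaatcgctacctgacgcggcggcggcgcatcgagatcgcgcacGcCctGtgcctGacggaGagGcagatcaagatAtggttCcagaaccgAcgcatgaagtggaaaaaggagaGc

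The longest run of bases that the coding sequences of HOXB6 and HOXB7 share is 51. Over all 39 members the homeobox was 70.6% to 91.1% identical to that of the nearest other member (median 82.2%), and the longest run shared with another member's coding sequence was 17 to 62 bases (median 27). In 6 genes that run was 50 bases or more, and tags inside such runs are uncertain, because no source used here states the read length or how reads with several matches were treated.

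Values are given as sense tags, which are the authors' raw counts of tags on the gene's own strand, as RPKM, the authors' tags per kilobase of exon and M tags (M, mega), and as CPM, tags per M tags computed here with TMM scaling. Sense tags of named genes numbered 163.1 and 119.1 M in C4-2 and 58.9 and 70.4 M in LNCaP. They made up 67.65% and 69.42% of the totals behind the RPKM values in C4-2, against 31.03% and 35.65% in LNCaP. That gap sets apart the 2 scales: the median log2 fold change of all genes tested was -0.01 with TMM and 0.99 with the RPKM totals, a shift of 1.004. A change of a HOX gene is therefore relative to the typical gene, and the value with the RPKM totals is given where a direction turns round. Of 11 luminal prostate markers, HOXB13 among them, all were detected in each library, with summed levels of 4243 and 4198 CPM in C4-2 and 4051 and 3953 CPM in LNCaP. The summed level of 4 basal markers was 0.125 and 0.203 CPM in C4-2 and 0 and 0.0706 CPM in LNCaP, and of 7 immune markers, CD3E and MS4A1 among them with no tag, 2.39 and 2.27 CPM against 3.33 and 3.66 CPM. The 9 fibroblast and smooth muscle markers summed to 8.78 and 9.30 CPM in C4-2 and 9.44 and 11.5 CPM in LNCaP, with COL1A2 at 0. Of these, ACTA2 and COL3A1 were higher (log2 fold changes of 2.38 and 1.35) and COL1A1 was lower (-1.48). The 4 endothelial markers summed to 3.65 and 3.38 CPM in C4-2 and 4.58 and 4.28 CPM in LNCaP. Neuroendocrine markers (6, with CHGB at 0) summed to 26.5 and 25.3 CPM in C4-2 and 8.16 and 8.18 CPM in LNCaP. Only 2 of the 6 passed the filter on low counts. Of these, 1 was higher, at 1.84, and 1 stood at -0.25 and was not called. With the RPKM totals both were called higher. The part of the difference in that sum in the HOX results was not tested.

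Most HOX genes were lower in C4-2, and the gene with the highest level was the main exception. Of the 39 members, 26 passed the filter on low counts; 21 of these were lower and 2, HOXB13 and HOXD8, were higher in C4-2 (edgeR quasi-likelihood test, Benjamini-Hochberg adjusted p under 0.05). Among all 15972 genes tested, 39.7% were lower and 40.2% higher, so that 80.0% were called in some direction. The other 3, HOXB3 and HOXB6 among them, did not pass. A change of at least 2-fold downward was found for 17 of the 26, against 18.1% of all genes tested. The median log2 fold change of the 26 was -2.42. It was also -2.42 with HOXA4 and HOXB7, which had no tag in C4-2, set at their bounds. HOXA3, HOXA4, HOXA7, HOXA9, HOXA13, HOXB5, HOXB7, HOXC8 and HOXC11, with few or no tags in C4-2, passed the filter through their LNCaP levels. They could only be called lower, which bears on the counts of 21 and 17 and on the median. HOXD8, with few tags in LNCaP, passed it through C4-2 and could only be called higher. In all 26 the CPM of the groups did not overlap, which held for 89.9% of all genes tested.

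Low levels were common among the members, and across all genes tested, low ones were more often lower in C4-2. Under an average of 1 CPM, 53.2% of 2944 genes tested were lower, and of 13 HOX genes 10 were. Between 1 and 8 CPM the shares were 47.4% of 2928 genes and 7 of 8 HOX genes, and from 8 CPM upward 33.6% of 10100 genes and 4 of 5 HOX genes. Lower calls that held with both TMM and the RPKM totals were made for 15 of the 26 members, against 11.0% of all genes tested. These were 9 of 10 tested HOXA genes, 2 of 6 HOXB genes, 3 of 8 HOXC genes and 1 of 2 HOXD genes. All members named above as passing the filter through LNCaP are among the 15. This count and the counts by level therefore carry that limit. In bulk RNA, fewer cells with a transcript and less of it per cell cannot be told apart.

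**Figure D1:**
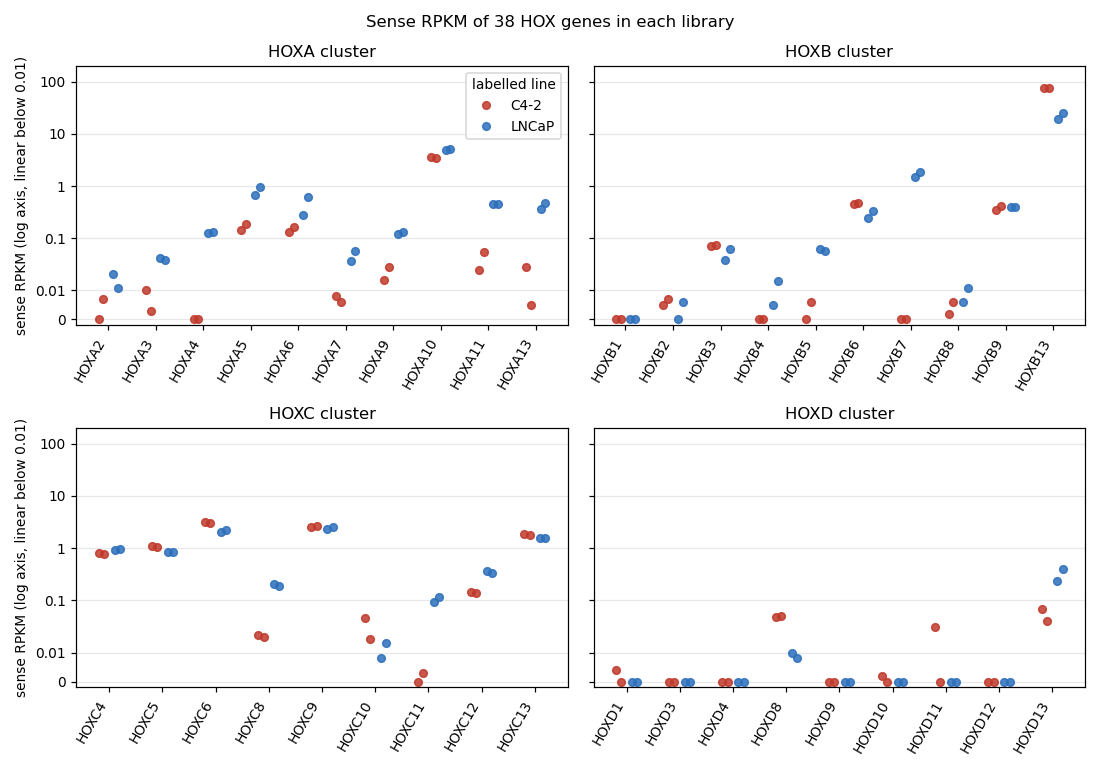
Sense RPKM of 38 of the 39 HOX genes in each library (points, 2 per line; C4-2 left and LNCaP right of each gene; log axis that is linear below 0.01). HOXB13 stood at 75.9 and 74.3 RPKM in C4-2 and at 19.5 and 24.7 RPKM in LNCaP, above all other members, while HOXA4, HOXB4 and HOXB7 lay at 0 in both C4-2 libraries and above 0 in both LNCaP libraries.

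HOXB13 set the total. Summed over the 39 genes the level was 89.8 ± 1.27 RPKM in C4-2 and 41.0 ± 5.10 RPKM in LNCaP (SD, n = 2 each). HOXB13 made up 83.7% and 83.6% of that sum in C4-2 and 52.2% and 55.4% in LNCaP. On the TMM scale the sums were closer, at 133 ± 4.86 CPM per kilobase of exon in C4-2 and 121 ± 4.48 in LNCaP, and without HOXB13 they were 21.7 ± 0.668 in C4-2 and 56.0 ± 0.686 in LNCaP. Without HOXB13 the RPKM sum was 14.7 ± 0.122 RPKM in C4-2 and 18.9 ± 1.43 RPKM in LNCaP. The next gene was HOXA10 in every library, and HOXB13 exceeded it 21.4- and 22.0-fold in C4-2 and 4.01- and 4.85-fold in LNCaP.

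Below HOXB13 the order of levels differed between the lines. Exactly 6 members exceeded 1 RPKM in each library. In C4-2 these were HOXB13, HOXA10 (3.46 ± 0.120), HOXC6 (3.14 ± 0.0608), HOXC9 (2.61 ± 0.105), HOXC13 (1.83 ± 0.0608) and HOXC5 (1.10 ± 0.0396 RPKM, SD, n = 2). In LNCaP they were HOXB13, HOXA10 (4.98 ± 0.163), HOXC9 (2.44 ± 0.0856), HOXC6 (2.14 ± 0.156), HOXB7 (1.65 ± 0.255) and HOXC13 (1.55 ± 0.0205 RPKM). The libraries of HOXB7 and HOXC13 overlapped in LNCaP, so those neighbours in the order did not differ beyond their spread. The set thus shared HOXB13, HOXA10, HOXC6, HOXC9 and HOXC13, with HOXC5 in its place only in C4-2 and HOXB7 only in LNCaP. Which line had more HOXC5 depended on the scale, because with TMM it stood at 2.65 CPM in C4-2 and at 4.17 CPM in LNCaP. HOXC5 passed 1 RPKM through a long transcript that RefSeq lists as non-coding, and all HOXC5 values not marked otherwise are of it. The coding transcript from the gene's own start had 0.257 and 0.195 RPKM in C4-2 and 0.323 and 0.276 RPKM in LNCaP.

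**Figure D2:**
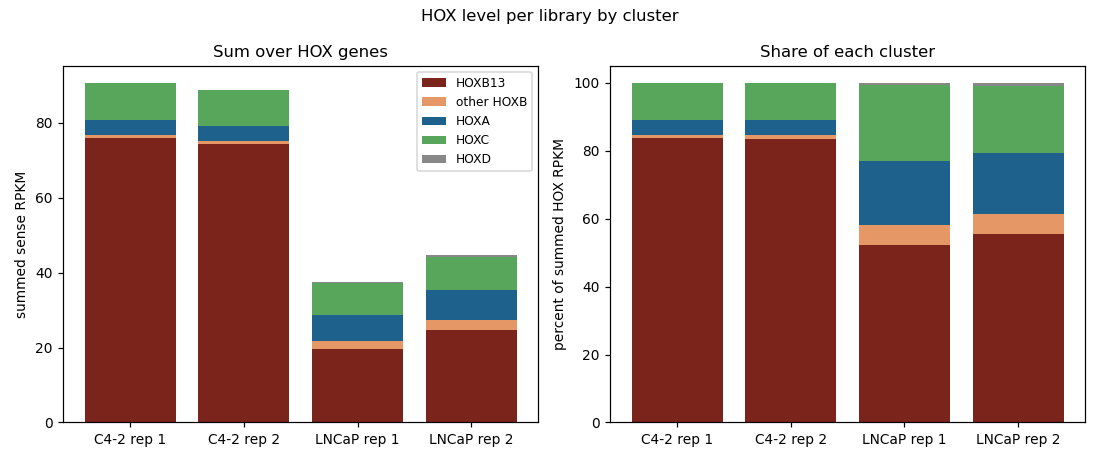
Summed sense RPKM of the HOX genes in each library (left, stacked bars) and the percent of that sum held by HOXB13, the other HOXB genes, HOXA, HOXC and HOXD (right). HOXB13 fills 83.7% and 83.6% of the bars of C4-2 and 52.2% and 55.4% of those of LNCaP.

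In the HOXA cluster on chromosome 7, 9 of 10 tested genes were lower and 0 higher, against 39.7% and 40.2% of all genes tested. The median log2 fold change was -3.50. HOXA3, HOXA4, HOXA7, HOXA9 and HOXA13 passed the filter through LNCaP and could only be called lower, which bears on the count and the median. The summed level of the cluster was 3.96 ± 0.0346 RPKM in C4-2 and 7.51 ± 0.704 RPKM in LNCaP (SD, n = 2 each). HOXA10 alone held most of both sums.

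At the head end of the cluster, HOXA2, a gene of the hindbrain and pharyngeal arches, had 0 and 2 tags in C4-2 and 7 and 4 in LNCaP and stayed under the filter. HOXA3, needed in mice for the thymus and parathyroid, had 8 and 2 tags in C4-2 and 27 and 26 in LNCaP, at -3.47 ± 0.49 (SE). HOXA3 was called lower (edgeR adjusted p = 0.000251).

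HOXA4 had 0 tags in both C4-2 libraries and 42 and 45 tags in LNCaP, so that it was at least 61.7-fold lower, counting 3 tags over both C4-2 libraries as the floor. HOXA5, a regulator of lung development, had 58 and 54 tags in C4-2 and 208 and 310 tags in LNCaP. Both C4-2 libraries lay far below both LNCaP libraries, with 0.409 ± 0.0684 against 3.92 ± 0.649 CPM (SD, n = 2 each). The log2 fold change was -3.28 ± 0.20 (SE, edgeR adjusted p = 1.57e-06). HOXA6 and HOXA7, the next genes of the cluster, were lower, at -2.56 ± 0.37 and -3.64 ± 0.53 (SE). HOXA6 had 26 and 23 tags in C4-2 and 43 and 96 in LNCaP. The tags behind HOXA7 were few, with 4 and 2 in C4-2 and 14 and 23 in LNCaP.

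HOXA9, a gene with a leading role in blood stem cells and leukaemia, had 8 and 10 tags in C4-2 and 46 and 54 in LNCaP, a log2 fold change of -3.53 ± 0.35 (SE, edgeR adjusted p = 3.04e-05). HOXA10, which guides the uterus and male tract in mice, had 2197 and 1488 tags in C4-2 and 2373 and 2587 tags in LNCaP. In CPM the groups were well apart, at 13.1 ± 0.753 in C4-2 and 38.0 ± 2.09 in LNCaP (SD, n = 2 each). Its log2 fold change was -1.53 ± 0.067 (SE, edgeR adjusted p = 2.92e-07), and it was -0.52 and still called with the RPKM totals. Its position at chr7:27210210-27213955 (hg19, minus strand) places it between 2 genes with far larger folds.

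HOXA11 and HOXA13 lie beyond HOXA10 at the tail end. HOXA11 (chr7:27220776-27224835, hg19, minus strand), known for its part in limb and uterus, had 16 and 25 tags in C4-2 and 228 and 236 tags in LNCaP. That was 0.156 ± 0.0794 CPM in C4-2 and 3.57 ± 0.326 CPM in LNCaP (SD, n = 2 each), with no overlap. Its log2 fold change was -4.57 ± 0.28 (SE, edgeR adjusted p = 1.5e-06). Tags on the other strand of HOXA11 were 19 and 6 in C4-2 and 50 and 69 in LNCaP, or 37.9% and 20.4% of the tags there. HOXA13 had 17 and 2 tags in C4-2, an uneven pair, and 173 and 236 tags in LNCaP. Both of its C4-2 libraries lay below both LNCaP libraries, with the log2 fold change at -5.50 ± 0.38 (SE, edgeR adjusted p = 3.3e-06). These are the largest falls of the cluster among genes with tags in C4-2.

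**Figure D3:**
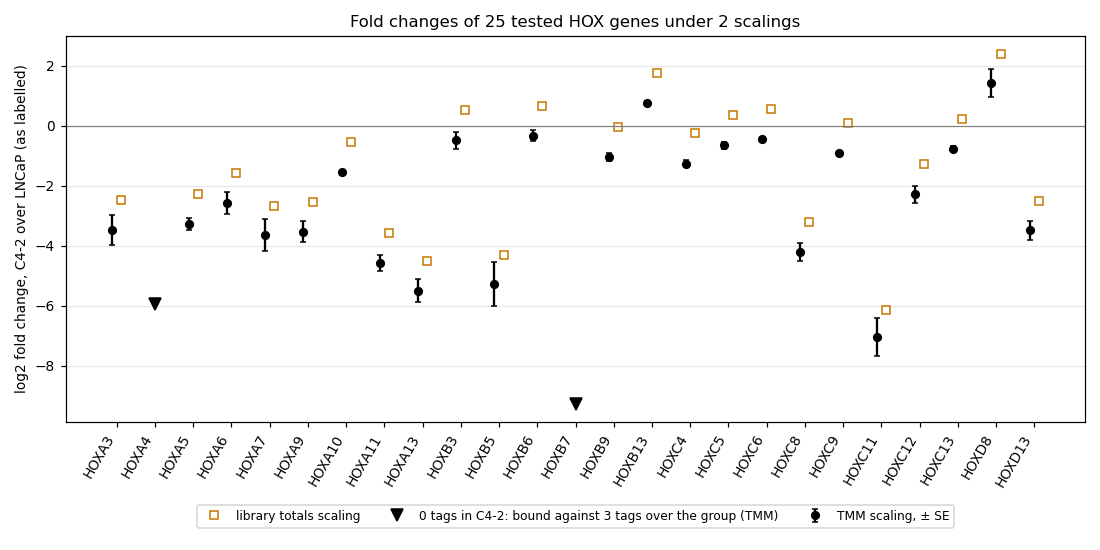
Log2 fold change of 25 of the 26 tested HOX genes, C4-2 over LNCaP as labelled, in cluster order. Filled circles are TMM-scaled values with bars of 1 SE, open squares use the RPKM totals, and triangles are the bounds of HOXA4 and HOXB7, which had 0 tags in C4-2. HOXB13 and HOXD8 lie above 0 on both scales, and 15 genes lie below 0 and were called lower on both.

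The HOXB cluster on chromosome 17 split gene by gene. Of 6 tested genes, 3 were lower, 1 was higher and 2 did not pass. HOXB5 and HOXB7, among the lower ones, passed the filter through LNCaP and could only be called lower. The median log2 fold change was -0.76 with TMM and 0.24 with the RPKM totals. The summed level was 76.0 ± 1.09 RPKM in C4-2 and 24.6 ± 4.02 RPKM in LNCaP (SD, n = 2 each), and without HOXB13 it was 0.925 ± 0.0566 RPKM in C4-2 and 2.45 ± 0.351 RPKM in LNCaP.

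HOXB1, which sets the identity of a hindbrain segment, had no sense tag in any library. HOXB2, its neighbour, had 2 and 2 tags in C4-2 and 0 and 2 in LNCaP. HOXB3 had 61 and 45 tags in C4-2 and 26 and 44 in LNCaP, with a log2 fold change of -0.48 ± 0.28 (SE, edgeR adjusted p = 0.147) that was 0.51 with the RPKM totals and 0.09 with both strands summed. None of these head-end genes was called. HOXB4, used to expand blood stem cells, had 0 tags in C4-2 and 2 and 6 tags in LNCaP, at least 5.68-fold lower but under the filter.

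From HOXB5 to HOXB8 the neighbours went apart. HOXB5 (chr17:46668619-46671103, hg19, minus strand) had 0 and 2 tags in C4-2 and 21 and 21 in LNCaP, a ratio of LNCaP over C4-2 of 44.7 with a counting interval of 11.6 to 381. HOXB6 (chr17:46673099-46682334) had 185 and 133 tags in C4-2 and 77 and 111 in LNCaP, and its log2 fold change of -0.33 ± 0.18 (SE) did not pass (edgeR adjusted p = 0.125). With the RPKM totals HOXB6 was called higher in C4-2, at 0.67, and under a stricter filter it was called lower, at -0.41 (edgeR adjusted p = 0.0452). HOXB7 (chr17:46684595-46688383), a gene studied for its part in the growth and spread of epithelial tumours, had 0 tags in both C4-2 libraries and 380 and 493 in LNCaP. It was at least 620-fold lower, the largest bound among the members, and in LNCaP it reached 6.65 ± 0.452 CPM (SD, n = 2). HOXB8 had 1 and 2 tags in C4-2 and 2 and 4 in LNCaP. So HOXB6, whose homeobox is the near match printed above, kept tags in both lines while the genes on either side had 2 tags or none in C4-2.

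HOXB9 had 228 and 190 tags in C4-2 and 199 and 207 in LNCaP, a log2 fold change of -1.04 ± 0.15 (SE, edgeR adjusted p = 0.000228). With the RPKM totals it was at -0.03 and not called. HOXB13 (chr17:46802127-46806111, hg19, minus strand) stands apart from the rest of its cluster on the far side of a gap. It had 55558 and 38680 tags in C4-2 and 11246 and 14820 tags in LNCaP. Per M tags that was 337 ± 12.7 CPM in C4-2 and 198 ± 15.7 CPM in LNCaP (SD, n = 2 each), and the groups did not overlap on this scale or in RPKM. HOXB13 was higher by 0.76 ± 0.060 on the log2 scale (SE, edgeR adjusted p = 7e-06), and by 1.76 with the RPKM totals. PRAC1, a prostate and colon gene that lies next to HOXB13, had 9151 and 6624 tags in C4-2 and 3202 and 3933 in LNCaP, and its log2 fold change of 0.06 ± 0.048 (SE) did not pass (edgeR adjusted p = 0.317). With the RPKM totals PRAC1 was called higher, at 1.06.

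In the HOXC cluster on chromosome 12 all 8 tested genes were lower with TMM, with a median log2 fold change of -1.08, yet the cluster turned with the scale. Its summed level was 9.66 ± 0.0997 RPKM in C4-2 and 8.59 ± 0.260 RPKM in LNCaP (SD, n = 2 each), whereas TMM-scaled CPM per kilobase of exon summed to 14.3 ± 0.467 in C4-2 and 25.5 ± 1.47 in LNCaP. With the RPKM totals 3 of the 8 genes were lower and 2 higher, against 11.0% of all genes tested lower and 72.4% higher on that scale. The genes fell into those with log2 folds between -1.26 and -0.45 and those at -2.28 or lower. HOXC4, HOXC5 and HOXC6 were counted through long transcripts that share a leader exon, and tags in that exon can count for each of them. The count of 8, the median and the sums carry this overlap. HOXC8 and HOXC11 passed the filter through LNCaP and could only be called lower.

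HOXC6 (chr12:54410642-54424607, hg19, plus strand), a gene often raised in prostate tumours, had 1588 and 1099 tags in C4-2 and 799 and 922 in LNCaP. On the RPKM scale C4-2 lay above LNCaP, with 3.18 and 3.09 against 2.03 and 2.25 RPKM. On the CPM scale it lay below, with 9.60 ± 0.403 against 13.2 ± 0.194 CPM (SD, n = 2 each). Its log2 fold change was -0.45 ± 0.072 with TMM (SE, edgeR adjusted p = 0.000503) and 0.55 with the RPKM totals, so its direction is relative to the scale. The long transcript of HOXC5 turned in the same way, at -0.65 ± 0.12 (SE) with TMM and 0.36 with the RPKM totals, while its transcript from the gene's own start was lower in C4-2 in RPKM too.

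HOXC9, a gene of the trunk and hind limb region, had 943 and 710 tags in C4-2 and 695 and 760 in LNCaP, and HOXC13, a regulator of hair and nail keratins, had 1081 and 734 tags in C4-2 and 698 and 740 in LNCaP. They were lower, at -0.91 ± 0.082 and -0.77 ± 0.090 (SE), and with the RPKM totals they stood at 0.10 and 0.24 and were not called. HOXC4 was at -1.26 ± 0.11 (SE) and at -0.25 with the RPKM totals, where it was not called.

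HOXC8, HOXC11 and HOXC12 were lower on both scales. HOXC8, which patterns the thoracic skeleton in mice, had 12 and 8 tags in C4-2 and 91 and 84 in LNCaP, at -4.21 ± 0.31 (SE, edgeR adjusted p = 4.42e-06). HOXC11 had 0 tags and 1 tag in C4-2 and 36 and 47 in LNCaP, a ratio of LNCaP over C4-2 of 177 with a counting interval of 30.9 to 7063. HOXC12 had 30 and 20 tags in C4-2 and 59 and 55 in LNCaP, at -2.28 ± 0.28 (SE). Each of the 3 had a smaller share of tags in both C4-2 libraries than in either LNCaP library. Between HOXC9 and HOXC11, HOXC10 had 22 and 6 tags in C4-2 and 3 and 6 in LNCaP and stayed under the filter.

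The deposited transcripts of HOXC4, HOXC5 and HOXC6 overlap, which bears on what their folds measure. Each gene has a long transcript, kept here for its higher share of tags, that starts at chr12:54410642 (hg19) with a shared leader exon, and a transcript that starts at the gene itself. The RefSeq promoter entries of HOXC4 and HOXC5 are a single window, chr12:54016638-54016937 on GRCh38.p14, shown because the long transcripts share it. Its bases match GRCh37 once, at chr12:54410422-54410721, and the first transcribed base of RefSeq lies 30 bases downstream of the start of the deposited transcripts. Capitals mark its 15 CG pairs.
HOXC4 and HOXC5 promoter: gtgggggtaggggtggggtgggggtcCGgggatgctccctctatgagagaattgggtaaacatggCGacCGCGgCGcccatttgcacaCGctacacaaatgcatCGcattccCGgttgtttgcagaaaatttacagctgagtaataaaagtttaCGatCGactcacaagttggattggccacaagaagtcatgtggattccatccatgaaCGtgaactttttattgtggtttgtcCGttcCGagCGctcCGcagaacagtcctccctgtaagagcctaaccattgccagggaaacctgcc

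Over the transcripts that start at the gene, HOXC4 and HOXC5 had log2 fold changes further below 0 than over the long ones. This difference was not tested. The transcripts that start at the gene lie within the span of the long ones and end at the same base. Tags in bases that both share can come from either, so these values do not measure how much each start was used. The transcript of HOXC4 that starts at the gene had 85 and 56 tags in C4-2 and 216 and 218 in LNCaP, with a log2 fold change of -2.72 ± 0.17 (SE, edgeR adjusted p = 2.01e-06). That of HOXC5 had 100 and 54 tags in C4-2 and 99 and 88 in LNCaP, at -1.39 ± 0.24 (SE, edgeR adjusted p = 0.000837). That of HOXC6 had 1240 and 855 tags in C4-2 and 623 and 728 in LNCaP, at -0.46 ± 0.079 (SE), close to its long transcript and, like it, higher in C4-2 in RPKM (3.06 and 2.97 in C4-2, against 1.95 and 2.19 in LNCaP). Tags of the long transcript that lie outside the one from the gene's own start were almost the same number for the 3 genes, with 362 and 253, 344 and 246, and 348 and 244 in C4-2 for HOXC4, HOXC5 and HOXC6. In LNCaP these were 191 and 220, 168 and 188, and 176 and 194. Tags counted in the transcript that starts at the gene, whichever start they came from, equalled a share of the long transcript's tags. For HOXC4 that share was 19.0% and 18.1% in C4-2 and 53.1% and 49.8% in LNCaP. For HOXC5 that share was 22.5% and 18.0% in C4-2 and 37.1% and 31.9% in LNCaP, while for HOXC6 it was 78.1% and 77.8% in C4-2 and 78.0% and 79.0% in LNCaP. The transcripts from the genes' own starts were looked at after the data were seen.

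**Figure D4:**
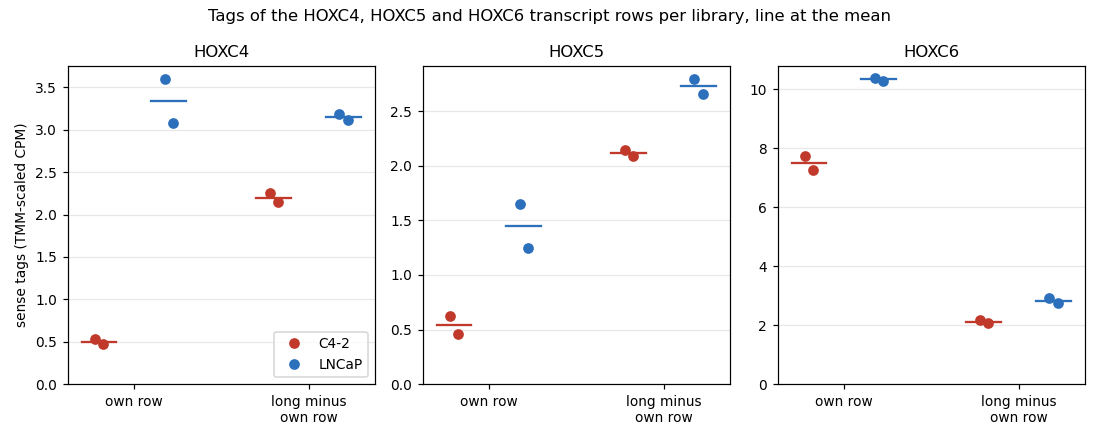
Sense tags (TMM-scaled CPM) of the HOXC4, HOXC5 and HOXC6 transcripts that start at the gene itself (own row) and of the remainder of the long transcripts that share a leader exon (long minus own row); points are libraries, lines are means of 2, and each panel has its own scale from 0. For HOXC4 the tags of the own row, 85 and 56 in C4-2 and 216 and 218 in LNCaP, give a wider gap than the remainder. Tags of an own row can come from either transcript.

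The HOXD cluster on chromosome 2 was nearly silent in both lines. Of its 9 genes, HOXD3, HOXD4, HOXD9 and HOXD12 had no sense tag in any library, and its summed level was 0.122 ± 0.0445 RPKM in C4-2 and 0.324 ± 0.111 RPKM in LNCaP (SD, n = 2 each). HOXD1 had 2 and 0 tags, HOXD10 had 1 and 0 and HOXD11 had 11 and 0 in C4-2, and all 3 had none in LNCaP. HOXD11 thus rested on a single library.

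HOXD13, which shapes digits and the male tract, was lower: it had 38 and 16 tags in C4-2 and 104 and 181 in LNCaP, at -3.48 ± 0.31 (SE, edgeR adjusted p = 1.46e-05). HOXD8 was the only other HOX gene besides HOXB13 called higher, with 30 and 22 tags in C4-2 and 5 and 4 in LNCaP, at 1.42 ± 0.48 (SE, edgeR adjusted p = 0.0236). That call was lost when any of the 4 libraries was left out (edgeR adjusted p between 0.06 and 0.188), without the filter on low counts (0.0571) and with DESeq2 (0.235). Within group 13 the 4 paralogs therefore stood at 0.76 for HOXB13, -0.77 for HOXC13, -3.48 for HOXD13 and -5.50 for HOXA13, and HOXC13 was at 0.24 with the RPKM totals.

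By position, 1 of 3 tested genes of groups 1 to 3 was lower, HOXA3, which passed the filter through LNCaP alone. In groups 4 to 8, 10 of 12 were lower and 1 higher, and in groups 9 to 13, 10 of 11 were lower and 1 higher. Both of these ranges also hold members that passed through LNCaP alone and could only be called lower. Of all genes tested, 39.7% were lower and 40.2% higher. With the RPKM totals, 7 were lower and 4 higher in groups 4 to 8, and 7 lower and 1 higher in groups 9 to 13. On that scale 11.0% of all genes tested were lower and 72.4% higher. Groups 9 to 13 held 93.3% and 93.2% of the summed HOX RPKM in C4-2 and 81.1% and 81.1% in LNCaP, with HOXB13 included. Without HOXB13 the share was 58.8% and 58.6% in C4-2 and 60.4% and 57.6% in LNCaP, where the groups overlapped.

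RefSeq promoters (300 bases, GRCh38.p14) were on hand for 20 of the 39 members, as 26 distinct windows. These cover the clusters unevenly. Several belong to HOXA3, HOXB1 is the only HOXB gene, and HOXC has only the window shared by HOXC4 and HOXC5. HOXB13 and HOXB7 are not among them. Repeated windows were merged for HOX genes but not for all genes. The letters CCAAT, on either strand, were in 17 of the 26, or 65.4%, against 34.6% of 35116 windows of all genes. TATAAA was in 5, or 19.2%, against 11.5%. The windows of HOX genes had a median of 22.5 CG pairs and those of all genes 14, and the window of HOXA13 (chr7:27200042-27200341) had 44, more than 95.8% of all. A match says nothing of whether a factor binds there.

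The tested non-coding RNAs of the clusters were lower with TMM, and fewer of them with the RPKM totals. Of 16 with a deposited transcript 6 were tested, and all 6 were lower with TMM, against 39.7% of all genes tested. With the RPKM totals 3 were lower and 1 higher, against 11.0% and 72.4% of all genes tested. HOXA11-AS, transcribed away from HOXA11, had 42 and 30 tags in C4-2 and 141 and 192 in LNCaP, at -3.29 ± 0.20 (SE, edgeR adjusted p = 1.54e-06). HOTTIP, which lies next to HOXA13 and recruits an activating complex to the tail-end HOXA genes, had 3 and 0 tags in C4-2 and 17 and 23 in LNCaP, at -4.68 ± 0.69 (SE). HOXA-AS3, whose span crosses HOXA5, HOXA6 and HOXA7 on the other strand, was at -2.71 ± 0.33 and HOTAIRM1, at the head end of the HOXA cluster, at -1.07 ± 0.18 (SE). HAGLR of the HOXD cluster stood at -2.07 ± 0.50 (SE), a call lost with DESeq2 (adjusted p = 0.0894) and with the RPKM totals. HOTAIRM1 also lost its call with the RPKM totals (-0.08). HOTTIP and HAGLR, the latter with 8 and 4 tags in C4-2, passed the filter through LNCaP and could only be called lower. HOXC13-AS, which overlaps HOXC13, was at -0.43 ± 0.10 (SE) and at 0.58 with the RPKM totals, and its lower call was lost without C4-2 replicate 2 (edgeR adjusted p = 0.0502). HOTAIR, from the HOXC cluster, had 3 and 4 tags in C4-2 and 12 and 7 in LNCaP and stayed under the filter. The 6 microRNA genes of the clusters had no tag. The library kit is not stated to keep strand, yet no more than 1.18% to 1.80% of tags were on the other strand. For HOXB13, the member with the most tags, that share was 0.0827% in C4-2 and 0.0690% in LNCaP. Exchange of tags between overlapping antisense genes was not tested.

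Of 21 tested genes that flank the clusters, 9 were higher and 9 lower, near the 40.2% and 39.7% of all genes tested, and the median log2 fold change was 0.06. EVX1, a homeobox gene just beyond HOXA13, had 0 tags in C4-2 and 19 and 16 in LNCaP, at least 24.8-fold lower. CBX1 and HNRNPA1 beyond the HOXB and HOXC clusters were higher (0.77 ± 0.046 and 0.55 ± 0.032, SE), and TTLL6 and ATP5MC1, on the far side of HOXB13, were lower (-2.96 ± 0.17 and -1.02 ± 0.062, SE; ATP5MC1 -0.02 and not called with the RPKM totals). In the ParaHox, CDX and EVX genes, relatives of the HOX genes, 3 of 8 were tested and all 3 were lower. These were EVX1, CDX2 (0 tags in C4-2, 15 and 19 in LNCaP, at least 24.1-fold lower) and PDX1 (-1.35 ± 0.44, SE). EVX1 and CDX2, with no tag in C4-2, passed the filter through LNCaP alone and could only be called lower. The call of PDX1 was lost with the RPKM totals (-0.37), with DESeq2 (adjusted p = 0.153) and without C4-2 replicate 2 or LNCaP replicate 2. Of 46 other homeobox genes tested, 16 were higher and 12 lower (median 0.14), with ZHX1 higher at 0.81 ± 0.045 (SE). BARX2 had 9 and 9 tags in C4-2 and 148 and 139 in LNCaP, at -5.06 ± 0.29 (SE). LHX6 had 0 and 4 tags in C4-2 and 250 and 263 in LNCaP, at -7.98 ± 0.43 (SE). BARX2 and LHX6 passed the filter through LNCaP and could only be called lower.

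Lists of partners and regulators of HOX genes are read against the 40.2% higher and 39.7% lower of all genes tested, and none is shown here to differ from those shares. Of 7 tested TALE cofactors, which bind DNA together with HOX proteins, 3 were higher and 3 lower (median 0.21): MEIS3 was higher at 1.12 ± 0.14, PBX4 and PKNOX1 were lower at -1.66 ± 0.22 and -0.96 ± 0.064 (SE; PKNOX1 0.05 with the RPKM totals), and PBX2 was lower at -0.59 ± 0.058 but higher at 0.42 with the RPKM totals. MEIS1 did not pass, at 0.23 ± 0.11 (SE, edgeR adjusted p = 0.0943). It was called higher with the RPKM totals (1.23), without the filter (edgeR adjusted p = 0.0485) and without LNCaP replicate 2 (edgeR adjusted p = 0.0236). Among 30 Polycomb genes 11 were higher and 14 lower (median -0.09, and 0.92 with the RPKM totals), with CBX6 higher at 1.58 ± 0.055, YAF2 lower at -1.29 ± 0.082, and the methyltransferase gene EZH2 and the repressor gene BMI1 at -0.65 ± 0.041 and -0.71 ± 0.046 (SE), which stood at 0.36 and 0.30 with the RPKM totals. Of 17 Trithorax and demethylase genes 5 were higher and 8 lower (median -0.13, and 0.88 with the RPKM totals), with WDR5 and ASH2L higher at 0.77 ± 0.046 and 0.91 ± 0.053 and KMT2C and KMT2B lower at -1.81 ± 0.053 and -1.13 ± 0.065 (SE; KMT2B -0.13 and not called with the RPKM totals). KMT2A, the activator of HOX genes best known from leukaemia, was at -0.53 ± 0.056 (SE) and at 0.48 with the RPKM totals. Of 12 tested genes of the retinoic acid pathway, which switches on head-end HOX genes in embryos, 5 were higher and 3 lower (median 0.21), with RXRA, RDH11 and ALDH1A3 at 0.98 ± 0.058, 0.98 ± 0.033 and 0.52 ± 0.058 and DHRS3 at -2.62 ± 0.13 (SE).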

How the data were processed

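Total RNA of C4-2 and LNCaP cells was sequenced on an Illumina HiSeq, in 4 libraries. The submitters' processing notes name TopHat2 2.0.6, Bowtie and the build hg19 (GRCh37); the counting tool is not given in the sources used here. Per the file headers, the authors deposited tag counts and RPKM values for each strand of 41351 transcript entries. A RefSeq table (GRCh38.p14, names only) named 38970 of 40304 accessions; unnamed entries held 2.07% to 2.16% of sense tags and were left out. Each symbol kept its transcript of highest mean tag share. Totals behind RPKM, recovered from the tags and RPKM values, were 241.07 and 171.51 M (mega) tags in C4-2 and 189.87 and 197.63 M in LNCaP. HOX genes, lists and named genes were chosen with earlier results of these data known; the rule names all members and up to 4 genes of each other list by smallest adjusted p, besides MEIS1, EZH2, KMT2A, PRAC1 and EVX1; a few genes that meet it are not reported here.

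Counts were tested with edgeR 4.0.16 in R 4.3.3 (quasi-likelihood, low-count filter, TMM, cell line as the term, Benjamini-Hochberg over 15972 genes, called under 0.05), after a test on simulated data. Alternatives were DESeq2 1.42.0, RPKM totals, no or a stricter filter, other transcripts, both strands, each library left out, and a replicate block. Library numbers were not shown to pair: the correlation of deviations was -0.148 over 13924 genes. Replicates differed by more than sampling noise (chi-square per degree of freedom 12.2 in C4-2 and 24.4 in LNCaP), and the biological coefficient of variation was 6.43%. Counting intervals (95%) and floors (3 tags over a group) cover counting error only. Coordinates are those of the deposited data, counted from 1.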

Additional observations from a re-analysis of the deposited data

Results flagged for a closer look

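Tags on the strand opposite to the gene, which the comparisons do not use, stood above LNCaP in C4-2 for 3 HOX genes. HOXB3 had 19 and 37 such tags in C4-2, against 3 and 2 in LNCaP, and with both strands summed its log2 fold change was 0.09 in place of -0.48. HOXB13 had 47 and 31 in C4-2, against 9 and 9 in LNCaP, which is 0.0827% and 0.0690% of its tags. HOXC4 had 9 and 4 in C4-2, against 0 and 1 in LNCaP. The differences were not tested.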

How the results depend on the processing

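Scaling mattered most. With the RPKM totals 11571 genes were higher and 1756 lower; HOX genes higher numbered 5, HOXB 2, HOXC 2 with 3 HOXC genes lower, and the HOX median was -1.43. Higher and lower counts were then 5 and 1 for TALE cofactors, 27 and 1 for Polycomb, 14 and 1 for Trithorax, 1 and 3 for cluster non-coding RNAs, 17 and 2 for flanking genes and 38 and 5 for other homeobox genes, with 10 retinoic acid genes higher. Directions turned for HOXB3 (0.51), HOXB6 (0.67), HOXC5 (0.36), HOXC6 (0.55), HOXC9 (0.10), HOXC13 (0.24), PBX2 (0.42), PKNOX1 (0.046), EZH2 (0.36), BMI1 (0.30), KMT2A (0.48) and HOXC13-AS (0.58). HOXB3 was 0.088 with both strands, and PRAC1 -0.027 under the stricter filter. HOX genes higher numbered 1, and HOXD genes higher 0, with no filter, the stricter filter (1 CPM in 2 libraries) and DESeq2, and 1 to 1 and 0 to 0 without each replicate. The stricter filter also left 4 HOXA genes lower, 0 ParaHox genes and 3 non-coding RNAs lower, 3 retinoic acid and 5 flanking genes higher, and a HOX median of -1.34, as fewer genes were tested; DESeq2 gave 3 retinoic acid genes higher. Without each replicate in turn, 3 to 6 retinoic acid genes and 5 to 9 flanking genes were higher, both fewest without C4-2 replicate 1.

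Summed HOXA level in C4-2 was 4.36 RPKM with the highest-RPKM transcripts and 4.02 with both strands; HOXC with both strands was 9.87 in C4-2 and 10.2 in LNCaP. TMM-scaled CPM per kilobase gave 5.85 and 22.3 for HOXA, 112 and 72.6 for HOXB, 14.3 and 25.5 for HOXC, and 0.181 and 0.950 for HOXD in C4-2 and LNCaP, which turned the order for HOXC.

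A replicate block, with pairing not shown, kept 2 HOX genes higher and 21 lower and gave 6254 higher and 6131 lower among all genes. With crossed numbers, chosen after seeing the data, these were 6532 and 6319. Depth limits the 13 untested HOX genes, whose low counts allow no statement of absence.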

Other observations

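Opposite-strand tags of HOXC9 were 12 and 11 in C4-2 and 27 and 880 in LNCaP, so that a single LNCaP library held nearly all of them. Its sense tags in that library, 760, were close to those of the other LNCaP library, 695. HOXC13 had 75 and 42 opposite-strand tags in C4-2 and 23 and 41 in LNCaP, and HOXA7 had 12 and 3 in C4-2 and 5 and 8 in LNCaP, against 4 and 2 and 14 and 23 sense tags.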
